A study of Rattus norvegicus with 46 samples.

Results

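The comparison described here sets injured rat supraspinatus tendon without its bursa, 3 days after the operation, against uninjured tendon. The libraries were chosen by their labels, 6 supraspinatus libraries labelled day 3 bursa removed and 5 labelled control, together 11 of the 46 libraries of the series. In the first group the supraspinatus, a tendon of the rotator cuff, had been cut through (tenotomy) and the subacromial bursa, the sac that lies over it, had been taken out. The controls were taken from non-operated rats. They differ from the first group in both the tenotomy and the bursectomy, so the effects of these operations cannot be told apart in this comparison. Tendons that were cut with the bursa left in place, and bursa removed tendons at day 14, are used below where they bear on it (6 libraries each). Strain, age and sex of the rats are not in the labels. RNA was extracted from whole dissected tissue, enriched for poly(A) RNA and sequenced with Illumina TruSeq chemistry. In such bulk samples fewer cells of a type and less RNA per cell cannot be told apart.

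Tendon is made of parallel collagen fibres kept up by tenocytes, cells that depend on the transcription factors Scx and Mkx and make Tnmd, collagens and small proteoglycans. A cut tendon goes through an inflammatory phase, in which neutrophils and macrophages enter, then a phase in which fibroblasts divide and lay down a provisional matrix, and later a long phase of remodelling. Matrix metalloproteinases (MMPs) are secreted or membrane-bound enzymes that cut collagens and other matrix proteins, and tissue inhibitors of metalloproteinases (TIMPs) hold them in check.

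Total estimated counts (M, counts in units of 1e6) were 15.5 M ± 1.02 (SD, n = 6, range 14.3 to 17.2) in the bursa removed libraries and 15.7 M ± 2.11 (SD, n = 5, range 12.4 to 18.3) in the controls. The labels do not tie libraries to rats, so p-values measure the spread between libraries. For single features that spread was estimated over all 29 tendon libraries, which include the bursa intact and day 14 groups. The control tendons held tendon transcripts, with each of the 11 tendon cell markers at 6.38 CPM (counts scaled to a library of 1e6) or more in every control library, and also skeletal muscle RNA. The muscle list took 5.49% ± 0.861 (SD, n = 5) of control counts and 1.48% ± 1.19 (SD, n = 6) of bursa removed counts (exact two-sided permutation test, p = 0.0043). Mitochondrial transcripts took 30.9% ± 5.62 (SD, n = 5) and 15.7% ± 4.98 (SD, n = 6), with exact permutation p = 0.0087. Bursa removed replicate 1 stood apart from its group. Its muscle share was 3.78%, against 0.61 to 1.62% in replicates 2 to 6, and its mitochondrial share 25.4%, against 11.7 to 15.5%. Its mean correlation with the control libraries (Pearson's r of log2 levels across genes, which are not independent replicates) was 0.865, and that of the others lay between 0.722 and 0.793.

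**Figure D1:**
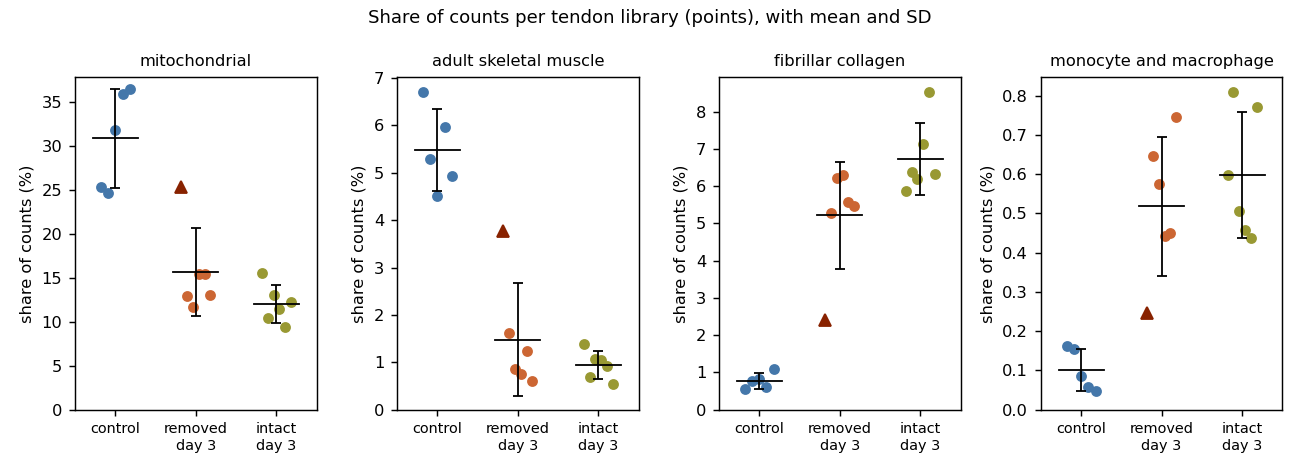
Share of all counts (%) taken by mitochondrial transcripts and by the muscle, fibrillar collagen and macrophage lists in each library of control, bursa removed day 3 and bursa intact day 3 tendon; lines and bars give the mean and SD, and the triangle is bursa removed replicate 1. Its mitochondrial share of 25.4% lies within the control range of 24.7 to 36.5%, and the other 5 bursa removed libraries lie below that range.

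The values below are log2 changes (bursa removed minus control) ± an approximate standard error, and levels are CPM. That error is the size of the change divided by the square root of the F statistic of its test, and is not itself fitted. Values cited from the authors' table carry the DESeq2 standard error instead. The words rose and fell stand for an adjusted p under 0.05 (edgeR quasi-likelihood test, Benjamini-Hochberg over all features). Of 16239 features tested, 10258 passed (63.2%), with 4834 that rose (29.8%) and 5424 that fell (33.4%). The counts of every list below are to be read beside these shares, since a list near them is not set apart. The median change was -0.05 and the median absolute change 0.56. A change over 2-fold was called for 1376 features that rose (8.47%) and 1252 that fell (7.71%), together 2628 (16.2%). With the level of the muscle list in each library as a covariate, 4874 features passed and 866 were called over 2-fold. Scaled by library totals alone, 77.4% of the calls were rises, against 47.1% in the main analysis, and the median of all features moved to 0.45. Changes are stated relative to the TMM scaling of the main analysis.

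The letters TGANTCA were looked up in the RefSeq promoters (GRCr8 build) of the MMP genes because most of these genes rose together. They take in TGACTCA and TGAGTCA, the core bound by AP-1 (dimers of Fos and Jun proteins), and are wider than that core. The 7 letters are their own reverse complement, so 1 search covers both strands. Of the 13 MMP genes tested, 7 had a promoter in the table, and 5 of these rose. Within the 250 bases before the start site the letters were found in 4 of those 5, Mmp13, Mmp3, Mmp12 and Mmp10, and not in that of Mmp23, nor in those of Mmp11 and Mmp15, which did not pass. Of 33469 promoters in the table, 2122 (6.34%) held the letters. That share is over all promoters, whereas 1 promoter was searched per MMP gene. All 4 matches lie on the plus strand of chromosome 8, with the first base at -66 (Mmp13), -71 (Mmp3), -87 (Mmp12) and -61 (Mmp10) from the start. The 4 genes are related neighbours on that chromosome, so their matches are not independent cases. A match describes the letters only; whether AP-1 was bound there was not measured. The 100 bases before each start are printed 5′ to 3′ with the match in capitals, from chr8:12782729-12782828 (Mmp13), chr8:12925181-12925280 (Mmp3), chr8:12866552-12866651 (Mmp12) and chr8:12974607-12974706 (Mmp10).
Mmp13: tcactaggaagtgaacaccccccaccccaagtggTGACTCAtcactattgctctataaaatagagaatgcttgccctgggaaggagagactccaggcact
Mmp3: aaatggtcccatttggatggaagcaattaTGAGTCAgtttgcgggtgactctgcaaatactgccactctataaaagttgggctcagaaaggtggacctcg
Mmp12: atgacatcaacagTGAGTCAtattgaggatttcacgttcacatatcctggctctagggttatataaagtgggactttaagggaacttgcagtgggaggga
Mmp10: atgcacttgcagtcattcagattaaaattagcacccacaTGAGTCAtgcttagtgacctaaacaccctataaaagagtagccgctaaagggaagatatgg

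The genes of the mature tendon cell were lower after the operation. Of 11 tested, 0 rose, 9 fell (7 over 2-fold) and the median change was -1.97. Chad, a leucine-rich protein that links cells to collagen, had 409, 1210, 1040, 1500 and 1880 CPM in the controls and a lowest, median and highest level of 2.18, 4.79 and 19.0 CPM after bursa removal. The groups did not overlap, and replicate 1 was the highest of the operated group. Chad fell by 7.56 ± 0.63 (adjusted p = 9.6e-11). Cilp2, a matrix protein of the cartilage intermediate layer protein family, fell by 4.40 ± 0.35, and Kera, a keratan sulphate proteoglycan of collagen fibrils, by 3.30 ± 0.36. Tnmd, a membrane protein made by tenocytes, had 162, 256, 227, 251 and 447 CPM in the controls and 62.7, 88.0 and 115 CPM (lowest, median and highest) after the operation. All operated libraries were below all controls, and Tnmd fell by 1.66 ± 0.28 (adjusted p = 9.1e-06). Mkx fell by 1.97 ± 0.28 and Fmod, which controls fibril thickness, by 2.54 ± 0.23. For Scx, levels of 31.7, 29.9, 18.1, 32.5 and 31.1 CPM in the controls overlapped with 16.6, 22.4 and 36.6 CPM in the operated group, and the change of -0.27 ± 0.24 did not pass (adjusted p = 0.34). Thbs4, a matrix thrombospondin, did not pass either (-0.29 ± 0.14, adjusted p = 0.081). With the muscle covariate 7 of the 11 fell. Tnmd was then at -1.17 (adjusted p = 0.057) and Chad at -6.68 (adjusted p = 1.5e-06).

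Transcripts of several secreted and matrix proteins were much lower after the operation. The lowest value among the genes named by size belonged to Clec3a, a C-type lectin known from cartilage, with 467, 1850, 1660, 1200 and 1790 CPM in the controls and 2.00, 2.83 and 10.7 CPM after bursa removal (-8.37 ± 1.07, adjusted p = 1.9e-07). Genes named by size had to show no overlap between the groups, so the separation of Clec3a follows from that rule. Serpinb7, a serpin, was next (-7.67 ± 0.77, from a total of 6 counts in the operated group), followed by Chad. Pla2g5, a secreted phospholipase, fell by 5.71 ± 0.32, the phosphatase inhibitor Ppp1r1b by 5.56 ± 0.61 and Cytl1, a secreted protein of cartilage, by 5.36 ± 0.45. Omd, a proteoglycan of mineralised matrix, fell by 5.33 ± 1.13, Scrg1 by 5.20 ± 0.67, the Wnt antagonist Wif1 by 5.03 ± 0.60 and Myoc, an extracellular glycoprotein, by 4.80 ± 0.61. Of 6 cartilage genes tested, 4 fell and 1 rose, and under library totals alone 1 fell and 2 rose. The muscle covariate left 2 that fell and 0 that rose, and without control replicate 2 the number that fell was 2. Col9a1 fell by 1.75 ± 0.73 with overlapping groups. The share of counts of that list ranged from 0.00582 to 0.05% in the controls, where replicate 2 was the highest, and from 0.00533 to 0.0209% in the operated group. Its part in the changes of Clec3a, Cytl1 and Scrg1 was not tested.

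Of 9 fibrillar collagens tested, the proteins of the tensile fibres, 6 rose, 2 fell and the median was 1.76. They took 0.767% ± 0.206 (SD, n = 5) of counts in the controls and 5.22% ± 1.43 (SD, n = 6) after the operation (exact two-sided permutation test, p = 0.0043). Col1a1, the main chain of tendon fibres, had 1940, 3280, 4770, 4440 and 9460 CPM in the controls and 11500, 18600 and 23200 CPM in the operated group. The highest control lay just under the lowest operated library, which was replicate 1. Col1a1 rose by 1.93 ± 0.27 (adjusted p = 5.2e-07). Col3a1, the collagen of early scar, rose by 2.56 ± 0.18, and the chains Col5a1 and Col5a3, which seed and limit fibrils, by 2.62 ± 0.21 and 3.55 ± 0.26. The 2 that fell were Col2a1, the collagen of cartilage (-3.25 ± 1.14), where the operated replicate 6 had 91.0 CPM and the groups overlapped, and Col24a1 (-0.87 ± 0.19). Of 13 other collagens 9 rose and 3 fell, among them the fibril-associated Col12a1 (2.83 ± 0.23) and the basement membrane collagen Col18a1 (2.65 ± 0.18). Col22a1, a collagen of the junction between muscle and tendon, fell by 2.27 ± 0.35, or 0.72 with the muscle covariate (adjusted p = 0.12). Col10a1 of hypertrophic cartilage fell by 5.55 ± 1.00, with control replicate 2 at 27.5 CPM and the other controls at 0.459 to 5.15 CPM.

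Of 9 small leucine-rich proteoglycans, which coat fibrils, 4 rose and 4 fell, beside 29.8% and 33.4% of all features. With the muscle covariate 2 rose and 3 fell. Lum rose by 3.08 ± 0.23 and Podnl1 by 4.06 ± 0.39, while Omd, Kera and Fmod fell. Wound matrix genes rose in 10 of 13 and fell in 1, with a median of 1.49. Postn, a matricellular protein that binds collagen during repair, had 137, 118, 393, 199 and 180 CPM in the controls and 2350, 5380 and 7140 CPM after the operation. Every operated library was far above every control, and Postn rose by 4.71 ± 0.29 (adjusted p = 2e-13). Cthrc1, secreted by activated fibroblasts, rose by 4.86 ± 0.23. The member that fell was Thbs1, an activator of latent TGF-beta (-0.64 ± 0.24). Of 15 genes of collagen processing and crosslinking 12 rose and 2 fell (median 1.34). Lox, which starts collagen crosslinks, rose by 2.98 ± 0.30 and Serpinh1, the collagen chaperone, by 2.19 ± 0.14. The relatives Loxl4 (-1.79 ± 0.23) and Loxl3 (-0.60 ± 0.13) fell. Lysosomal genes rose in 11 of 12, for example Ctsb, a cysteine protease (1.84 ± 0.11), and Ctsz (2.26 ± 0.13).

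**Figure D2:**
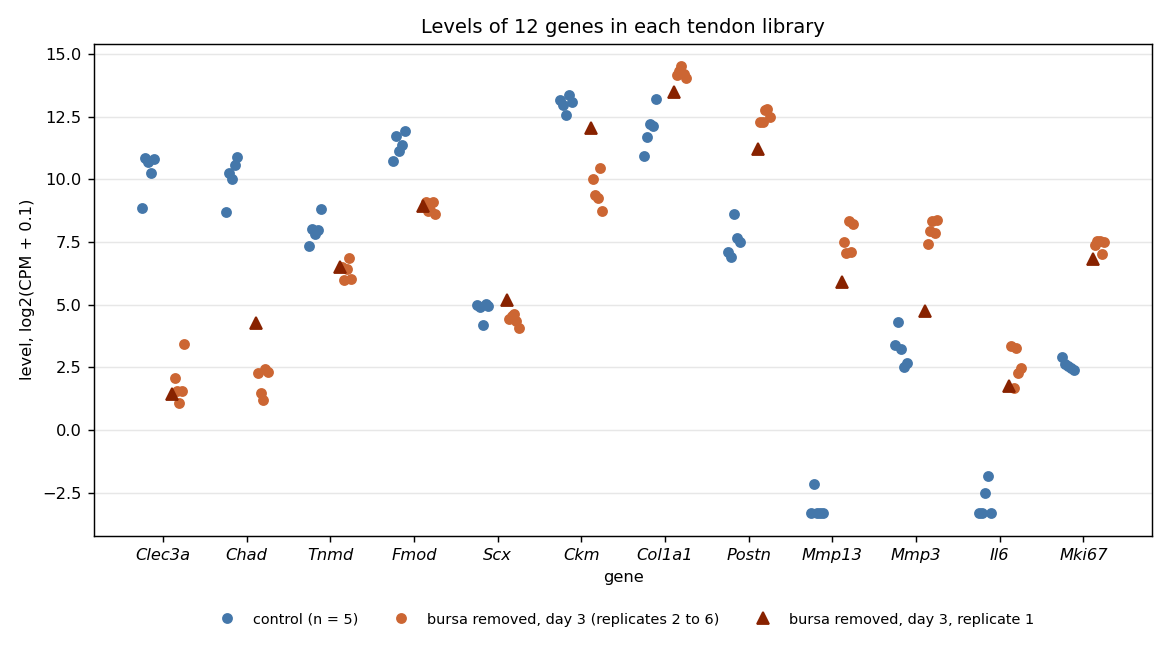
Levels of 12 genes as log2(CPM + 0.1) in each control library and each bursa removed day 3 library, with replicate 1 of the latter as a triangle. The 12 genes were chosen with their values known, so their separation says nothing about features at large. Scx overlaps between the groups, and the other genes shown do not.

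Proteases that cut matrix were among the strongest risers. Of 13 MMP genes 10 rose (9 over 2-fold) and 1 fell, with a median of 3.16. Mmp13, the main rodent collagenase, was at 0 CPM in control replicates 1, 3, 4 and 5 and at 0.124 CPM in replicate 2, and reached 60.4, 159 and 319 CPM (lowest, median and highest) after the operation. The controls held 2 counts in all and the operated libraries 19739, a ratio of 5910 with a 95% exact counting interval of 1640 to 48800. Mmp3, a stromelysin that also activates other MMPs, had 10.4, 19.9, 9.18, 5.59 and 6.34 CPM in the controls and 26.7, 237 and 335 CPM in the operated group. Replicate 1 was the lowest of the operated libraries, and the groups did not overlap. Mmp3 rose by 4.40 ± 0.61 (adjusted p = 6.9e-07). Mmp12, an elastase of macrophages, rose by 4.24 ± 0.65, Mmp10 by 4.13 ± 0.68 and the gelatinase Mmp9 by 4.83 ± 0.90. Mmp14, the membrane protease that activates Mmp2, rose by 3.16 ± 0.18 and Mmp2 itself by 1.94 ± 0.18. The member that fell was Mmp17 (-0.60 ± 0.20). With the muscle covariate 6 rose and 0 fell, with Mmp13 at 10.39 (adjusted p = 2.9e-08), Mmp3 at 1.84 (adjusted p = 0.075) and Mmp10 at 1.50 (adjusted p = 0.23).

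Of 16 ADAMTS proteases 9 rose and 2 fell. The aggrecanase Adamts4 rose by 4.13 ± 0.33 and Adamts7, which cuts Comp, by 3.38 ± 0.15, while Adamts8 (-2.28 ± 0.32) and Adamts20 (-1.72 ± 0.39) fell. Of 9 protease inhibitors 3 rose and 4 fell, not far from the shares of all features (29.8% and 33.4%). Under library totals alone 5 rose and 3 fell. A2m, a broad protease trap of plasma, was at 0 in all 5 controls and at 4.66, 8.69 and 12.5 CPM after the operation, at least 185-fold higher against a floor of 3 counts over the control group. Timp1 rose by 3.16 ± 0.20. Timp3, the matrix-bound inhibitor, had 276, 448, 445, 312 and 322 CPM in the controls and 42.2, 65.4 and 87.9 CPM in the operated group, with no overlap, and fell by 2.48 ± 0.18 (adjusted p = 2.8e-12). Timp4 fell by 3.11 ± 0.40. Slpi, an inhibitor of leukocyte elastase, was among the 10 strongest risers (7.48 ± 0.74).

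Of 16 genes of the IL-1 and IL-6 families 11 rose and 4 fell (median 1.17), and 7 rose and 3 fell with the muscle covariate. Il6 was at 0 CPM in control replicates 1, 2 and 5 and at 0.0765 and 0.177 CPM in replicates 3 and 4, against 3.11, 5.09 and 10.2 CPM (lowest, median and highest) after the operation. The ratio of counts, 634 against 3, was 127 with a 95% exact counting interval of 43.1 to 615. Il1b rose by 4.60 ± 0.46, from at most 0.266 CPM in a control to a median of 4.11 CPM. Among those that fell were the receptor Lifr (-2.45 ± 0.24) and the alarmin Il33 (-1.49 ± 0.20). Chemokines, which draw leukocytes, rose in 15 of 21 genes and fell in 3 (median 1.70, also with Ccl12 at its bound). Of the chemokines 9 rose and 1 fell with the muscle covariate. Ccl12, a rodent attractant of monocytes, was at 0 in all 5 controls and at least 100-fold higher after the operation. Ccl20 had 1 count in the controls and 301 in the operated group, a ratio of 180 (95% exact counting interval 32.1 to 7140). Ccl2, the main attractant of monocytes, had 19.0, 5.54, 3.21, 23.9 and 26.0 CPM in the controls and 37.2, 95.1 and 157 CPM in the operated group. The groups did not overlap, and Ccl2 rose by 2.67 ± 0.44 (adjusted p = 7.3e-06), or 1.47 with the muscle covariate (adjusted p = 0.096). Cx3cl1 (-1.54 ± 0.22) and Ccl24 (-1.28 ± 0.33) fell.

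Of 8 chemokine receptors 3 rose and 3 fell, near the shares of all features (29.8% and 33.4%). Without bursa removed replicate 1, under library totals alone and by DESeq2, 5 rose and 3 fell. The signalling receptors Cx3cr1 (3.13 ± 0.28) and Cxcr4 (2.32 ± 0.27) rose, and the scavenging receptors Ackr2 (-2.97 ± 0.22) and Ackr4 (-2.12 ± 0.17), which take chemokines up without signalling, fell. Of 18 genes of prostaglandin and leukotriene synthesis 7 rose and 5 fell (median 0.01), near the shares of all features (29.8% and 33.4%). Under library totals alone 10 rose and 3 fell, and with the muscle covariate 6 rose and 3 fell. Ptgs2, the inducible cyclooxygenase, rose by 4.20 ± 0.67 and the prostaglandin E receptor Ptger2 by 3.30 ± 0.39. The phospholipase Pla2g2a (-3.94 ± 0.34) and the lipoxygenase Alox5 (-1.97 ± 0.26) fell. Of 13 interferon response genes 4 rose and 0 fell, among them Mx1 (2.21 ± 0.58), which overlapped between the groups, and Cxcl10 (2.11 ± 0.50). That share is close to the 29.8% of all features that rose. Only 1 interferon response gene rose with the muscle covariate, Mx1 was at 1.28 (adjusted p = 0.28) and Cxcl10 at 1.88 (adjusted p = 0.068), and under library totals alone 7 rose.

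Most tested markers of neutrophils, monocytes and macrophages rose. Of 14 neutrophil genes 6 were tested, and of these 5 rose and 0 fell (median 4.14). For 5 others only the authors' deposited table has values, with 2 higher and 0 lower at a DESeq2 adjusted p under 0.05. Mpo (-1.19 ± 1.3), Camp (1.01 ± 1.22) and Fpr2 (-1.36 ± 1.62) did not pass there. The neutrophil list took a mean of 0.00435% of counts after the operation and 0.000247% in the controls. Csf3r, the receptor of granulocyte colony-stimulating factor, rose by 4.98 ± 0.29. Monocyte and macrophage genes rose in 10 of 11 (median 2.21). Cd68, a lysosomal protein of macrophages, had 26.5, 24.4, 14.6, 12.7 and 10.5 CPM in the controls and 85.8, 133 and 153 CPM in the operated group. All operated libraries exceeded all controls, replicate 1 being the lowest, and Cd68 rose by 2.85 ± 0.18 (adjusted p = 2.9e-13). Fcer1g, the signalling chain of Fc receptors, rose by 2.83 ± 0.14. The share of counts of this list was 0.102% ± 0.0533 (SD, n = 5) in the controls and 0.518% ± 0.177 (SD, n = 6) after the operation (exact permutation test, p = 0.0043), with 0.246% in replicate 1. Fcnb, a lectin of the complement system made by myeloid cells, rose by 8.15 ± 0.79, the inhibitory lectin receptor Clec4a2 by 6.77 ± 0.41 and Fcrl2, of the Fc receptor-like family, by 7.54 ± 0.40.

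Of 7 resident type macrophage genes 5 rose and 2 fell. Vsig4 (3.02 ± 0.54) and the mannose receptor Mrc1 (2.21 ± 0.16) rose, while F13a1 (-1.81 ± 0.24) and the hyaluronan receptor Lyve1 (-1.32 ± 0.20) fell. Genes of the macrophages named after Spp1 and Trem2 rose in 6 of 8 and fell in 1. Gpnmb, a lysosomal membrane glycoprotein, rose by 3.89 ± 0.20 and Arg1, which breaks down arginine, by 4.63 ± 0.69, Cd9 fell by 1.47 ± 0.13, and Spp1 itself did not pass (0.63 ± 0.40, adjusted p = 0.17). Of 9 T and NK cell genes 7 rose and 1 fell, against 4 and 0 with the muscle covariate. Cd8b had 1 count in the controls and 385 in the operated libraries, a ratio of 231 (95% exact counting interval 41.1 to 9130), Cd8a rose by 4.59 ± 0.47, and Prf1, the pore protein of killer cells, fell by 0.71 ± 0.30. All 5 MHC class II genes tested rose, with RT1-Da at 2.69 ± 0.24 and RT1-Ba at 2.62 ± 0.25. Of 8 mast cell genes 3 rose and 1 fell, beside 29.8% and 33.4% of all features. The proteases Cpa3 (1.61 ± 0.59) and Tpsab1 (1.38 ± 0.51) rose with overlapping groups, while Gata2, a transcription factor of mast cells, fell by 0.58 ± 0.17. None of the 8 passed with the muscle covariate, and 1 mast cell gene rose without control replicate 2. The 1 B cell gene tested, Cd79a, rose by 1.90 ± 0.66 and did not pass with the muscle covariate. In the complement list 8 of 17 rose and 4 fell, against 4 and 4 with the muscle covariate and 12 and 2 under library totals alone. The pattern receptor Ptx3 rose by 5.39 ± 0.47 and C3ar1 by 2.28 ± 0.22, and the inhibitors Clu (-2.77 ± 0.35) and Cd55 (-2.16 ± 0.30) fell.

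All 23 cell division genes tested rose, 20 of them over 2-fold, with a median of 4.04. Mki67, a protein of dividing nuclei, had 7.46, 6.10, 5.81, 5.41 and 5.19 CPM in the controls and 114, 171 and 188 CPM after the operation. No operated library came near a control, and Mki67 rose by 4.72 ± 0.18 (adjusted p = 5.2e-17). Among list members at 1 CPM or more, Rrm2, which makes DNA building blocks (5.64 ± 0.35), and Top2a (5.49 ± 0.30) rose most. Outside the list, Ttk, a kinase of the spindle checkpoint (6.16 ± 0.32), and Cdca2 (5.73 ± 0.30) were among the 10 strongest risers. With the muscle covariate 21 of the 23 rose.

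Haem and iron genes rose in 10 of 14 and fell in 2 (median 1.26). Hmox1, which breaks down haem, had 8.62, 7.34, 13.5, 7.45 and 5.31 CPM in the controls and 315, 665 and 804 CPM after the operation. The groups were far apart, and Hmox1 rose by 6.18 ± 0.32 (adjusted p = 7.4e-15). Red cell genes rose as well, with Alas2 at 2.95 ± 0.48 and Hba-a1, which shares reads with its copies and is uncertain as a single gene, at 1.87 ± 0.29. The members that fell were the transferrin receptor Tfrc (-1.0 ± 0.25) and the ferroxidase Cp (-0.26 ± 0.11), neither of which passed with the muscle covariate. Of 17 genes of endoplasmic reticulum folding and stress 12 rose and 3 fell, against 4 and 2 with the muscle covariate. The asparagine synthetase Asns (1.21 ± 0.16) and the disulphide isomerase Pdia6 (1.20 ± 0.10) rose, and the stress genes Ddit3 (-1.42 ± 0.12) and Chac1 (-1.98 ± 0.35) fell. Immediate early genes rose in 3 of 15 and fell in 7, beside 29.8% and 33.4% of all features. Fosl1, an AP-1 protein, rose by 3.12 ± 0.39 and Junb by 1.08 ± 0.23, while Klf4 fell by 2.25 ± 0.24 and Maff by 1.20 ± 0.19. Under library totals alone 5 immediate early genes rose and 3 fell, and with the muscle covariate 1 rose and 4 fell.

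**Figure D3:**
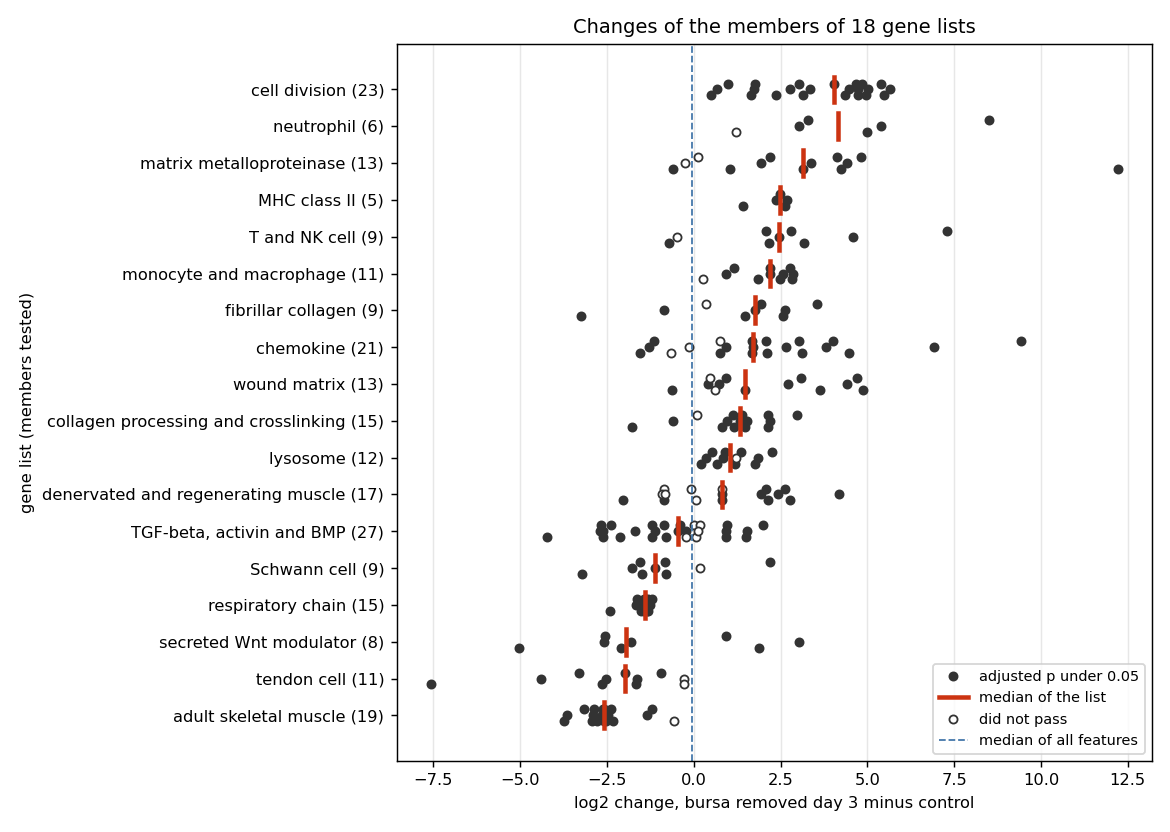
Log2 change (bursa removed day 3 minus control) of each tested member of 18 gene lists; filled points passed at adjusted p under 0.05, open points did not, red lines are list medians and the dashed line is the median of all features (-0.05). The 18 lists were picked from 45 with their results known. Among those left out are prostaglandin and leukotriene (median 0.01) and integrin (-0.05), so the spread shown is not that of all lists. Medians run from 4.14 for the neutrophil list and 4.04 for cell division down to -2.59 for adult skeletal muscle.

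Growth factor genes both rose and fell, and their counts stand beside 29.8% of all features that rose and 33.4% that fell. Of 27 genes of the TGF-beta, activin and BMP pathways 6 rose and 16 fell (median -0.45), whereas under library totals alone 12 rose and 11 fell. The receptor Tgfbr1 (1.53 ± 0.13) and the binding protein Ltbp2 (1.98 ± 0.23) rose. Ltbp4, which stores latent TGF-beta in the matrix, fell by 2.71 ± 0.16. Of 8 secreted Wnt modulators 3 rose and 5 fell. Sfrp1 (3.04 ± 0.28) and Sfrp2 (1.88 ± 0.24) rose, and Frzb (-2.57 ± 0.34) fell with Wif1. In the insulin-like growth factor axis 3 of 8 rose and 3 fell, near the shares of all features. The binding proteins Igfbp4 (1.76 ± 0.20) and Igfbp3 (1.05 ± 0.24) were up and Igfbp6 (-2.70 ± 0.23) and Igfbp5 (-1.49 ± 0.21) down. Igf1 was not matched to the count table; the authors' deposited table gives it 3.29 ± 0.23 (log2 change and its standard error, DESeq2 adjusted p = 1e-44), higher in the bursa removed tendons.

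Hyaluronan and lubrication genes rose in 6 of 10 and fell in 2. Has2, which makes hyaluronan, rose by 3.27 ± 0.35 and Tnfaip6, which modifies it, by 3.70 ± 0.29, and Has3 fell by 2.06 ± 0.22 and the hyaluronidase Hyal1 by 1.59 ± 0.16. Prg4, the lubricin of gliding surfaces, had 1940, 2620, 1600, 1430 and 1710 CPM in the controls and 1180, 2630 and 3300 CPM in the operated group, which overlapped (0.41 ± 0.28, adjusted p = 0.21). Of 16 integrins 5 rose and 7 fell, not far from the shares of all features (29.8% and 33.4%). Under library totals alone 9 integrins rose and 4 fell, and with the muscle covariate 3 rose and 6 fell. The collagen receptors went opposite ways, with Itga11 at 1.16 ± 0.22 and Itga10 at -4.77 ± 0.23. The fibronectin receptor chain Itga5 rose by 1.13 ± 0.14, and the epithelial chain Itgb6 fell by 1.66 ± 0.43 but was at 0.85 with the muscle covariate (adjusted p = 0.019). Of 6 genes of bone forming cells 2 rose and 3 fell, beside the same 29.8% and 33.4% of all features. The transcription factor Runx2 rose by 2.51 ± 0.17 and the matrix phosphoprotein Dmp1 by 1.17 ± 0.28. The peptidase Phex fell by 3.05 ± 0.38 and bone sialoprotein, Ibsp, by 2.59 ± 0.86. Of 5 osteoclast genes 3 rose, among them Acp5 (1.89 ± 0.18) and the collagen-cutting Ctsk (1.37 ± 0.16), and the transcription factor Nfatc1 fell by 0.42 ± 0.13.

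Of 20 endothelial genes 8 rose and 4 fell (median 0.18), beside 29.8% and 33.4% of all features. With the muscle covariate 4 endothelial genes rose and 1 fell, and under library totals alone 13 rose and 1 fell. Without control replicate 4 the number that fell was 2. Selp, an adhesion molecule that catches leukocytes, rose by 2.71 ± 0.28 and the vessel growth peptide Apln by 1.77 ± 0.29, while Esm1 (-2.24 ± 0.24) and Emcn (-0.64 ± 0.17) fell. Of 12 smooth muscle and pericyte genes 3 rose and 7 fell, against 3 and 3 under library totals alone and 2 and 3 with the muscle covariate. Mcam rose by 1.18 ± 0.16 and the smooth muscle actin Actg2 by 1.06 ± 0.32, and Lmod1 (-2.18 ± 0.25) and Myh11 (-1.98 ± 0.30) fell. Schwann cell genes, of the glia that wrap nerves, fell in 7 of 9 and rose in 1. S100b fell by 3.23 ± 0.21, and the neuregulin receptor Erbb3 rose by 2.19 ± 0.25. With the muscle covariate 3 fell and 1 rose. Adipocyte genes fell in 5 of 9, for example the lipid droplet protein Plin4 (-2.34 ± 0.37) and leptin, Lep (-2.18 ± 0.89), which overlapped between the groups (adjusted p = 0.062 without bursa removed replicate 1). With 1 library left out 3 to 8 adipocyte genes fell, 8 without bursa removed replicate 5 and 3 without any of bursa removed replicates 2, 3, 4 and 6 and control replicate 3. With the muscle covariate 0 fell.

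Muscle and respiratory chain genes were lower. Of 19 adult muscle genes 0 rose and 18 fell (median -2.59). Ckm, the creatine kinase of muscle, had 9090, 8060, 6110, 10400 and 8540 CPM in the controls and 426, 854 and 4260 CPM in the operated group. Replicate 1 supplied the 4260 CPM, still below every control. Ckm fell by 2.59 ± 0.51 (adjusted p = 8.3e-05), by 3.35 without replicate 1, and was at 0.04 (adjusted p = 0.95) with the muscle covariate, of which it is a part. The slow-fibre light chains Myl2 (-3.75 ± 0.64) and Myl3 (-3.64 ± 0.61) fell further. All 15 respiratory chain genes fell (median -1.40), and 12 did with the covariate. Ppargc1a, a regulator of mitochondria, fell by 2.42 ± 0.40 and Ndufb8 by 1.65 ± 0.16. Of 17 glycolysis and hypoxia genes 4 rose and 10 fell, Eno1 (0.93 ± 0.12) and Pgam1 (0.71 ± 0.14) being up and the muscle enzyme Pfkm (-2.60 ± 0.42) and Egln3 (-1.71 ± 0.33) down, with 6 up and 6 down under library totals alone and 0 up and 4 down with the covariate. Genes of denervated and regenerating muscle went the other way, with 9 of 17 up and 2 down, and 13 up and 0 down with the covariate. Mymx, which fuses myoblasts, rose by 4.18 ± 0.73 and Chrna1, of the acetylcholine receptor, by 2.78 ± 0.37, and Myod1 (-2.05 ± 0.44) and Chrnb1 (-0.85 ± 0.32) fell. With the covariate Myod1 was at 0.16 (adjusted p = 0.85) and Chrnb1 at 0.80 (adjusted p = 0.043). Of 5 genes of the muscle atrophy list 1 fell, Mstn, which limits muscle growth (-2.84 ± 0.46), and under library totals alone 3 rose and 1 fell.

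Tendons that were cut with the bursa left in place give the direct comparison for bursa removal. At day 3 no feature passed the test between bursa removed and bursa intact tendons (0 of 16239 by edgeR, 0.0%; 1268 at an unadjusted p under 0.05), and DESeq2 called 7. The number at an unadjusted p under 0.05 was 537 without bursa removed replicate 1 and 848 with only the 2 groups in the fit. Of the symbols, Galnt16, an enzyme that starts mucin-type sugar chains, had the smallest p (-0.76 bursa removed minus intact, edgeR adjusted p = 0.22). Dpt, dermatopontin of the collagen matrix (-0.64), and the procollagen-cutting Adamts14 (-0.67) were also among the 10 with the smallest p, all with an adjusted p of 0.22 to 0.30. Stmn4 (-1.37), Osr2 (-0.84), Tpbg (-0.54), Fam167a (-0.71) and the growth factor Pdgfc (-0.50) were also lower in the point estimate, and Tspan15 (0.82) and Letm2 (0.60) higher. The authors' deposited table of these groups, a DESeq2 analysis, lists 82 symbols at an adjusted p under 0.05, with 31 higher in bursa removed. Its smallest p belongs to Ptgs2, at -1.05 ± 0.18 (adjusted p = 3.7e-05), beside -0.93 in the edgeR analysis.

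Both operated groups are compared with the same controls, so their changes are given side by side only. In bursa intact tendons 10680 features passed against the controls (65.8%), with 31.1% that rose and 34.6% that fell. Chad was at -8.07 there and at -7.56 with the bursa removed, Tnmd at -1.27 and -1.66, and Col1a1 at 2.32 and 1.93. Mmp13 was at 11.65 and 12.22, Il6 at 6.48 and 6.76, and Mki67 at 4.83 and 4.72. Adult muscle genes had medians of -3.41 with the bursa intact and -2.59 with it removed. Without replicate 1 the Ckm change was -3.35 with the bursa removed, beside -3.29 with it intact.

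From day 3 to day 14 in bursa removed tendons 7359 features passed (45.3%), with 3802 that rose (23.4%) and 3557 that fell (21.9%). Of the 11 tendon cell genes 8 rose and 0 fell. Tnmd reached 1210, 1430 and 1750 CPM (lowest, median and highest), above every control, and rose by 4.10 (adjusted p = 3.5e-11). Cilp2 (4.09), Kera (3.18), Fmod (2.26) and Scx (1.58) rose. Chad, at 3.81, 12.3 and 20.2 CPM, stayed below every control, and its change of 0.83 did not pass (adjusted p = 0.19). Clec3a did not pass either (1.75, adjusted p = 0.097). All 23 cell division genes fell, with Mki67 at -1.71, and 14 of 21 chemokines fell. Il6 fell by 3.65, Mmp13 by 2.64 and Hmox1 by 2.75, each still with a median above the highest control. Postn rose by a further 2.20 and Col1a1 by 1.18.

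**Figure D4:**
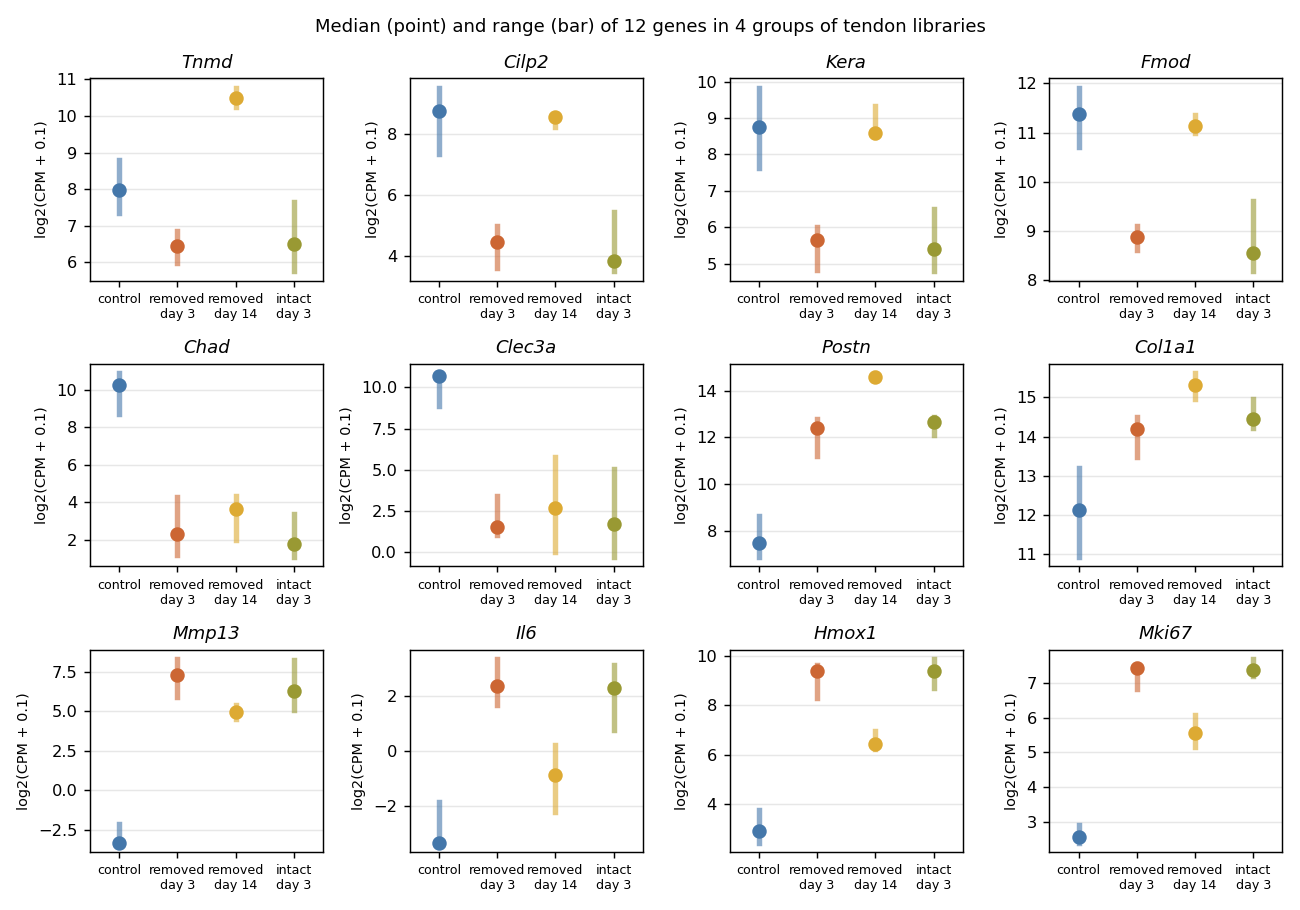
Median (point) and range (bar) of 12 genes, as log2(CPM + 0.1), in control, bursa removed day 3, bursa removed day 14 and bursa intact day 3 tendon. Tnmd, Cilp2, Kera and Fmod were higher at day 14 than at day 3, whereas Chad and Clec3a had medians of 12.3 and 6.24 CPM at day 14.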

How the data were processed

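Poly(A) RNA of whole tendon was sequenced. The authors made reads with bcl2fastq 2.19 and deposited estimated counts per transcript from kallisto 0.44.0, per the submitters' processing notes. The gene tables that the authors deposited were made with DESeq2 per the submitters' processing notes: baseMean is a normalized count signal, log2FoldChange and lfcSE are log2 values, stat is a score, and pvalue and padj are p-values. The deposited log2 change of the 2 groups is control over bursa removed, as found from the counts, so its sign was turned. The build and the gene models were not given in the sources used here.

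Symbols are missing from the count table. They were matched by value to the baseMean of all 11 deposited gene tables, which named 14189 of 23747 symbols and 92.1% of counts. Of these symbols 10303 were exact matches of 1 transcript. Later stages allowed differences of up to 10%, and Lox and Serpinh1 were named at that last stage. None of 1500 shifted values was matched at the first stage. The shifts moved the values of the tables against each other, so few transcripts could lie near them, and this check cannot show a wrong name. Unnamed transcripts stayed in the tests as features. A matched count comes near the deposited fold change by construction, so that is no separate test of a name. Of 12676 symbols compared against the controls, 98.81% lay within 0.1 (log2) of it. Between bursa removed and bursa intact at day 3, 91.86% of 13126 symbols did. Genes with near-identical copies share reads.

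Counts were summed per symbol, rounded, filtered with filterByExpr and scaled with TMM. All 29 tendon libraries entered 1 fit (edgeR 4.0.16, glmQLFit robust, glmQLFTest, R 4.3.3), and glmTreat tested against 2-fold. CPM use TMM-scaled library sizes. Shares of counts were compared by exact two-sided permutation tests (scipy 1.17.1). DESeq2 1.42.0, other scalings, filters and fits, a muscle covariate, a replicate block and leaving out each library were alternatives. Counting intervals (95% Clopper-Pearson) and floors of 3 counts over a group cover counting error only. In data simulated for the control comparison (16044 features), 79 of 100 2-fold and 93 of 100 4-fold changes were recovered. Another 7 features without a planted change were called. The simulation held far fewer changes than the real data, no shift in composition and no library that stood apart. These rates therefore cannot be carried over to the real comparison.

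Of 643 list genes in 45 lists, 535 were tested. The members, lists and tests were chosen with earlier results of these data known. Named genes are the 10 highest and 10 lowest without overlap and with at least 10 CPM in the higher group (1 riser, a gene model without a name, is not described), of each list the 2 highest risers and 2 lowest fallers at 1 CPM or more, 14 genes always named, and for bursa removed against intact the 10 smallest p. Further list members given as examples were chosen after their values were seen. Some genes that the rule names are not reported here.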

Additional observations from a re-analysis of the deposited data

Results flagged for a closer look

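Within each group, a library was singled out where its gap to the nearest other library was large against the range of the group (Dixon's criterion at the 95% level). This held for 59 of 390 groups of values. The level of the criterion, about 1 in 20, assumes independent and normally distributed values. Levels in CPM are skewed and come from the same libraries, so no excess over that level can be read from the number of flags. A group with counts in 1 library alone is always flagged, as for Mmp13, Ccl20 and Cd8b in the controls. Bursa removed replicate 1 accounts for 26 of the flags. The causes were not tested.

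Among shares of counts, bursa removed replicate 1 had the highest mitochondrial share (25.4%), the highest muscle share (3.78%) and the lowest tendon cell share (0.218%) of its group. Control replicate 3 had the highest neutrophil share (0.000426%) and bursa removed replicate 5 the highest adipocyte share (0.111%).

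Among single genes, levels are in CPM. Bursa removed replicate 1 was the highest in its group for Chad (19.0), Omd (1.24), Col22a1 (40.6), Adamts20 (6.75), Clu (745), Ckm (4260), Myl2 (169), Myl3 (154), Chrna1 (55.9), Pfkm (586), Has3 (3.1), Itga10 (3.65), Tspan15 (20.5), Mmp15 (40.8), Maff (24.5) and Chrnb1 (31.6). In the other direction, it was the lowest in its group for Thbs4 (1200), Col5a1 (823), Col3a1 (11100), Lum (1140), Fcer1g (141), Cpa3 (1.24) and Ltbp2 (90.0). Col3a1 and Col5a1 were thus lower and the muscle genes Ckm, Myl2 and Myl3 higher in it than in the other operated libraries. Bursa removed replicate 2 was the highest in its group for Serpinb7 (0.22). Bursa removed replicate 3 was the highest in its group for Cd55 (53.7). Bursa removed replicate 4 was the highest in its group for Arg1 (55.2), Cd8a (6.61) and Tfrc (71.0). Bursa removed replicate 5 was the highest in its group for Mmp17 (6.66), Myh11 (237) and Lep (4.16) and the lowest in its group for Pla2g2a (6.97). Bursa removed replicate 6 was the highest in its group for Clec3a (10.7), Col2a1 (91.0), Col10a1 (0.485) and Ibsp (4.42). Control replicate 1 was the highest in its group for Cd8b (0.0769). Control replicate 2 was the highest in its group for Mmp13 (0.124), Ppp1r1b (50.6), Cytl1 (632), Col2a1 (465), Col10a1 (27.5), Frzb (107), S100b (308) and Comp (3190). Control replicate 3 was the highest in its group for Fcrl2 (1.91), Ccl24 (7.12), Cpa3 (5.2), Tpsab1 (3.14) and Lep (15.6) and the lowest in its group for Scx (18.1). Control replicate 4 was the highest in its group for Ccl20 (0.0887) and the lowest in its group for Asns (4.08). Control replicate 5 was the highest in its group for Lox (257).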

How the results depend on the processing

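Of the comparison with the controls, 10258 features passed in the main analysis and 9757 to 10550 with 1 library left out. Over 2-fold, 2628 passed, and 2351 to 3151 with 1 library left out, the highest number without bursa removed replicate 1. Size factors by the RLE method gave 10223, DESeq2 10280, no count filter 10603 and the 2 groups alone 8994. The muscle covariate left 4874 features and 866 over 2-fold. With it 101 list members fell, against 169 in the main analysis, and the direction turned for Adamts20 (0.21), Ckm (0.04) and Myod1 (0.16), which did not pass, and for Itgb6 (0.85) and Chrnb1 (0.80), which did. Muscle shares of the 2 groups did not overlap, so muscle content and group cannot be told apart fully. Scaling by library totals alone turned Dpt (0.13), Letm2 (0.14), Cp (0.24) and Nfatc1 (0.09). Strict matching of names, with fewer members tested, gave 158 that rose, against 263, and 95 that fell. Against bursa intact tendons DESeq2 called 7 features and each edgeR setting run for that comparison 0 (the muscle covariate and strict matching were not run there), with 1268 at an unadjusted p under 0.05 in the main analysis and 537 to 1884 with 1 library left out.

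Leaving out 1 library gave 259 to 271 list members that rose and 156 to 171 that fell. Differences of shares (bursa removed minus control, in percentage points) ranged from -17.2 to -13.8 for mitochondrial, -4.47 to -3.7 for adult muscle, -0.47 to -0.34 for tendon cell and 0.37 to 0.47 for macrophage transcripts. That of the adipocyte list ranged from -0.0368 to -0.0174 and passed only without bursa removed replicate 5 (-0.0368).

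Replicate numbers are shared between the groups, but the labels do not say that a number marks a rat or a batch, and the libraries were not treated as pairs. With a replicate block 10197 features passed, and 7808 with the block and only the 2 groups. The deviations of same-numbered bursa removed and control libraries had correlations of -0.128 to 0.095. Those of bursa removed and bursa intact libraries at day 3 were 0.099 to 0.581, over 0.1 in 5 of 6, with the best match at the own number in 4 of 6, a hint from the data and not from the design; with a block 0 features passed there and 1304 had an unadjusted p under 0.05.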
